A study of Canis lupus familiaris with 77 samples.

Results

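The miRNAs of sciatic nerve, the largest peripheral nerve, were compared with those of brain in miR-seq data of male beagle dogs, all 10 months old. In miR-seq the small RNA of a tissue is sequenced and the reads on each miRNA are counted. The samples were chosen by tissue label alone. These were 2 of sciatic nerve and 5 of brain, 7 of the 76 samples with values, and every miRNA of the count table was included. The other 69 samples covered the remaining 14 of 16 tissues. For these dogs the methods name no genetic change and no drug. The methods state that tissues were taken after perfusion with buffered saline to reduce blood. The region of the brain is not given. The study describes the nerve samples in more than one way, once as separate samples beside a pool and once as parts of a pool, so whether both came from separate dogs is not settled. If they did not, the p-values below measure technical spread in nerve. A pooled nerve sample in the table was not used.

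A miRNA is a short RNA that lowers the output of the mRNAs it pairs with, mostly through a seed near its 5′ end, and many miRNAs are made in one cell type or one region of the body. Brain holds the cell bodies of neurons together with astrocytes, microglia and oligodendrocytes, which wrap central axons in myelin. Sciatic nerve holds axons whose cell bodies lie in the spinal cord and in dorsal root ganglia, Schwann cells, which make peripheral myelin, and sheaths rich in fibroblasts, collagen and vessels. The pair therefore sets 2 myelinated nervous tissues side by side, one with and one largely without neuronal cell bodies, and one from the head and one from the trunk and limb.

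Levels are given as RPM, the reads on a miRNA scaled to 1e6 reads on miRNAs in the sample. The nerve samples had 971311 and 1164212 reads on miRNAs and the brain samples 785857 to 3217077. Of 560 miRNA entries with a read in these samples, 456 had one in both tissues, 9 in nerve alone and 95 in brain alone. A count of 3 reads, the upper limit that a count of 0 allows, was 2.58 and 3.09 RPM in nerve and 0.933 to 3.82 RPM in brain, and it covers counting error only. Across miRNAs the nerve samples had a Spearman correlation of 0.916 with each other, the brain samples 0.919 to 0.969, and nerve with brain 0.781 to 0.837. Sciatic nerve was the tissue nearest to brain by this measure (mean 0.810), whereas brain was only the 8th nearest to sciatic nerve, behind thymus (0.847) and heart (0.843) among others. Names without a species prefix are dog (cfa) entries, and hsa- or rno- marks an entry taken from human or rat annotation. Entries of near-identical sequence, such as miR-10a and miR-10b or the miR-199 arms, may share reads.

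Several samples stood apart in single groups of miRNAs. Nerve sample 1 held 1917 RPM of miR-133a, a miRNA of heart and skeletal muscle, against 105 RPM in nerve sample 2, and 30.9 against 0 RPM of miR-206, which is particular to skeletal muscle. Brain sample 2 held 82068 RPM of miR-182 and brain sample 5 13005 RPM, where the other 3 brain samples had 249 to 307 RPM. Brain sample 2 also led in the epithelial miRNAs miR-429 (1278 RPM) and hsa-miR-200a-3p (966 RPM). Brain sample 3 was the lowest of the brain samples in miR-132, miR-212 and miR-138a and the highest in miR-204, miR-34c and hsa-miR-1298-5p. What set these samples apart was not tested. In bulk tissue, fewer cells of a type and less RNA per cell cannot be told apart.

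Of 386 miRNAs with enough reads to be tested, 91 were higher in nerve and 87 higher in brain (23.6% and 22.5% of those tested) at an adjusted p under 0.05. The test was edgeR's quasi-likelihood test with Benjamini-Hochberg adjustment over all 386, written below as edgeR adjusted p, on counts scaled by TMM. With a fold above 5 the counts were 46 in nerve and 63 in brain (11.9% and 16.3%). In 33 of those 63 no nerve sample had more than 3 reads, and the fold that 3 reads would allow was above 5 in 20 of the 33. The 89 nerve and 86 brain calls whose TMM-scaled values did not overlap between the tissues compare with 27.5% and 33.4% of all miRNAs tested. In RPM 53 of the 91 nerve calls and 86 of the 87 brain calls did not overlap, against 13.7% and 47.7% of all tested. The smallest two-sided p that an exact permutation test of 1 miRNA can give in 2 against 5 samples is 0.0952, so only the fit across miRNAs is used.

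The result depended on the scaling. miR-10b alone took 19.6% (95% Wilson interval 19.5 to 19.7%) and 28.8% (28.8 to 28.9%) of the nerve reads, against 0.0851% to 0.269% of the brain reads, and RPM are shares of these reads. On average 73.2% of the nerve RPM lay outside miR-10a and miR-10b. The TMM factors were 0.640 and 0.508 in nerve and 0.868 to 1.65 in brain, so they differed within brain too. How much of the dependence on scaling came from miR-10b was not tested. TMM, which sets the bulk of miRNAs equal between samples, and the library size placed the point of no change differently. The median log2 fold change of nerve over brain was -0.51 with TMM and -1.68 by library size, a shift of 1.17. A miRNA at the same RPM in both tissues was thus about 1.17 higher in nerve on the TMM scale. By library size 39 miRNAs were higher in nerve and 165 higher in brain, so that 19.1% and not 51.1% of the calls were in nerve. All 87 brain calls were called by library size too. Library size shifted fold changes toward brain, so this repetition is no test of the brain calls. Of the 91 nerve calls 39 were called by library size, and 3 (miR-93, miR-502 and miR-652, named after their values were seen) changed sign without being called. Called and not called refer below to this fit with TMM unless another is named. Counts of list members below are to be read beside the 23.6% of all tested called in nerve and 22.5% in brain. By library size they are to be read beside 39 and 165 of 386. Fold changes below are on the TMM scale, and a nerve call that library size did not repeat is named as such. RPM are not scaled by TMM.

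**Figure D1:**
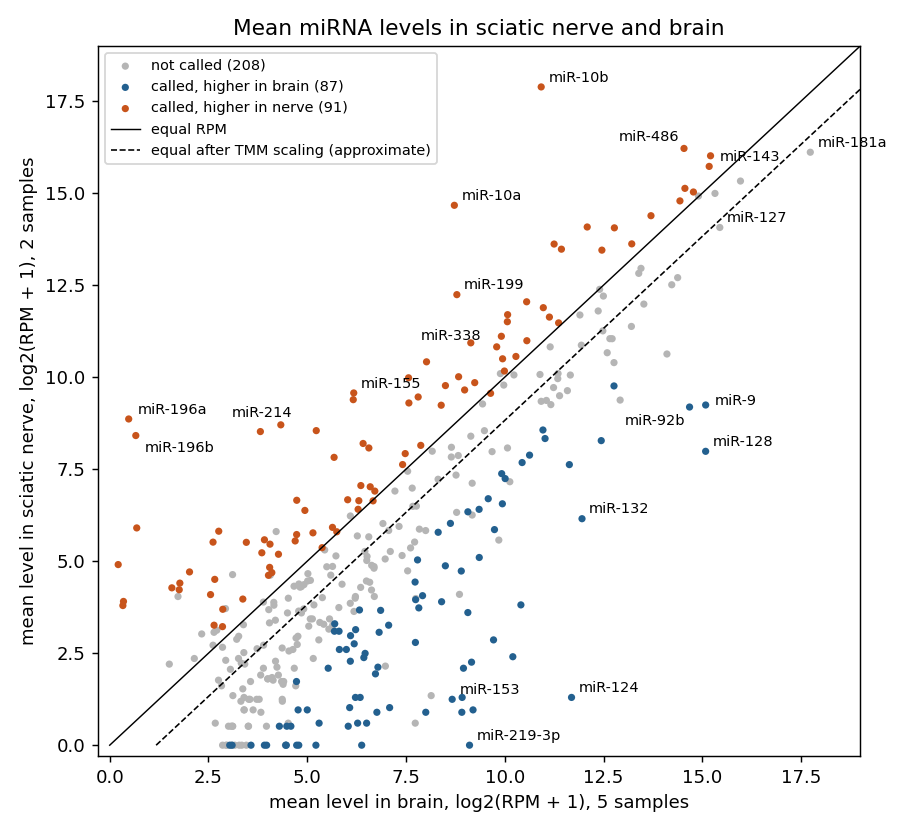
Mean level of the 386 tested miRNAs in the 5 brain samples (x axis) and the 2 sciatic nerve samples (y axis), both as log2(RPM + 1). Each point is 1 miRNA, coloured by its call. The solid line marks equal RPM and the dashed line lies 1.17 lower, the shift of the median between the scalings. miR-10b, miR-10a, miR-196a and miR-196b stand far above both lines, and miR-124, miR-128, miR-9 and miR-219-3p far below.

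The miRNAs of the HOX clusters showed the largest differences in favour of nerve. HOX genes give cells their position along the body axis, and miR-10 and miR-196 are encoded between them. In the RefSeq gene table of another dog assembly, MIR10A lies beside HOXB4, MIR10B beside HOXD3, MIR196B between HOXA9 and HOXA10, MIR196A-1 beside HOXB9 and MIR196A-2 beside HOXC10. All 6 tested entries of the 9 in this list were higher in nerve, with a median log2 fold change of 7.98 (7.55 with entries under 3 reads at their bound, against -0.33 for all tested miRNAs treated so), and all 6 were also called by library size. miR-10b stood at 196096 and 288344 RPM in the nerve samples and 1802, 1828, 851, 2526 and 2693 RPM in the brain samples. Both nerve samples lay above every brain sample, 275-fold higher after scaling (log2 fold change 8.10 ± 0.58 SE, edgeR adjusted p = 5.42e-05). miR-10a stood at 28399.8 and 23726 RPM in the nerve samples and 302, 541, 192, 413 and 663 RPM in the brain samples, a difference of 127-fold (log2 fold change 6.99 ± 0.60 SE, edgeR adjusted p = 9.37e-05). Without nerve sample 2 the fold of miR-10b was 147-fold. Brain had the lowest median of the 16 tissues for both miRNAs, whereas nerve was the 6th highest for miR-10b and the 11th highest for miR-10a.

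For the miR-196 pair brain was close to no reads. miR-196a stood at 671 and 259 RPM in the nerve samples and 0, 0.622, 0, 1.36 and 0 RPM in the brain samples, with no brain sample above 3 reads, so nerve was at least 533-fold higher (edgeR adjusted p = 5.42e-05). miR-196b stood at 361 and 319 RPM in the nerve samples and 0, 0.622, 0.491, 1.36 and 0.434 RPM in the brain samples, and nerve was at least 408-fold higher (edgeR adjusted p = 1.05e-05). Among the 16 tissues nerve held the 2nd place for miR-196a and the 3rd for miR-196b. Nerve sample 1 had more miR-196a than nerve sample 2, and without it the bound was 349-fold, while miR-196b and the miR-10 miRNAs were closer between them. The opposite arms hsa-miR-10b-3p (23.7 and 34.4 RPM in nerve, at most 0.491 RPM in brain) and hsa-miR-10a-3p (15.4 and 10.3 RPM, at most 0.678 RPM) were at least 35.8-fold and at least 15.2-fold higher. miR-615, which lies within the HOXC cluster, had 4.12 and 0.859 RPM in nerve and 0 in the brain samples and was too low to test.

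The miR-199 and miR-214 group, high in fibroblasts and other mesenchymal cells, was next among the lists. In the same gene table MIR214 and MIR199-2 both lie inside DNM3. All 5 of its entries were higher in nerve, by both scalings, with a median log2 fold change of 4.72 and 3.46 by library size. miR-214 stood at 386 and 347 RPM in the nerve samples and 12.7, 23.3, 3.93, 21.01 and 4.34 RPM in the brain samples and was 67.8-fold higher in nerve (log2 fold change 6.08 ± 0.56 SE, edgeR adjusted p = 9.42e-05). miR-199, the 3p arm and the most abundant of the group, stood at 4716 and 4972 RPM in the nerve samples and 609.5, 809, 282, 381 and 123 RPM in the brain samples and was 26.4-fold higher (log2 fold change 4.72 ± 0.50 SE, edgeR adjusted p = 0.000208). The 5p arms hsa-miR-199b-5p and hsa-miR-199a-5p were 52.5-fold and 24.6-fold higher, and hsa-miR-214-5p 17.6-fold. Without nerve sample 2 the folds were 17.3-fold for miR-199, 30.5-fold for hsa-miR-199b-5p and 15.02-fold for hsa-miR-199a-5p. The tissues did not overlap in RPM in any of the 5, where nerve lay above without overlap in 13.7% of all tested miRNAs. Brain sample 5 had the least of miR-199 and brain sample 2 the most, still below both nerve samples. Among the 16 tissues nerve was highest for both arms of miR-214, and brain had the lowest median for miR-199.

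The other 2 miRNAs of the 10 largest nerve differences were miR-155 and miR-23a. These 10 were taken from calls without overlap in RPM and with a mean of at least 100 RPM. Called entries outside these conditions could have larger changes, such as hsa-miR-27a-5p with a log2 fold change of 6.09. miR-155, made in activated lymphocytes and macrophages, stood at 917 and 602 RPM in the nerve samples and 58.5, 102, 31.4, 108 and 56.5 RPM in the brain samples and was 23.9-fold higher in nerve (log2 fold change 4.58 ± 0.41 SE, edgeR adjusted p = 9.37e-05). Among the other leukocyte miRNAs, miR-146a was 3.62-fold higher in nerve (edgeR adjusted p = 0.0339), but its RPM overlapped and it was not called by library size (log2 fold change 0.67, adjusted p = 0.404 in edgeR). Without nerve sample 1 or 2 or brain sample 1 or 2 its adjusted p in edgeR was 0.120, 0.335, 0.0750 and 0.0781. miR-146b at 1566 and 563 RPM in nerve against 205 to 7064 RPM in brain and miR-142, a miRNA of all blood lineages, at 136 and 210.4 RPM in nerve against 79.1 to 351 RPM in brain were not called, though miR-142 was called higher in nerve without brain sample 1 or 3 (edgeR adjusted p = 0.0345 and 0.0456). Of 9 leukocyte entries 6 were tested and 2 called higher in nerve, where 23.6% of all tested miRNAs were so called. The 9 entries summed to 3389 and 2359.5 RPM in nerve and 519 to 8428 RPM in brain. miR-23a, encoded with miR-27a and miR-24 and known from endothelium and muscle, stood at 1732 and 1001 RPM in the nerve samples and 324, 278, 117, 414 and 159 RPM in the brain samples and was 12.2-fold higher in nerve (log2 fold change 3.61 ± 0.35 SE, edgeR adjusted p = 0.000110).

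**Figure D2:**
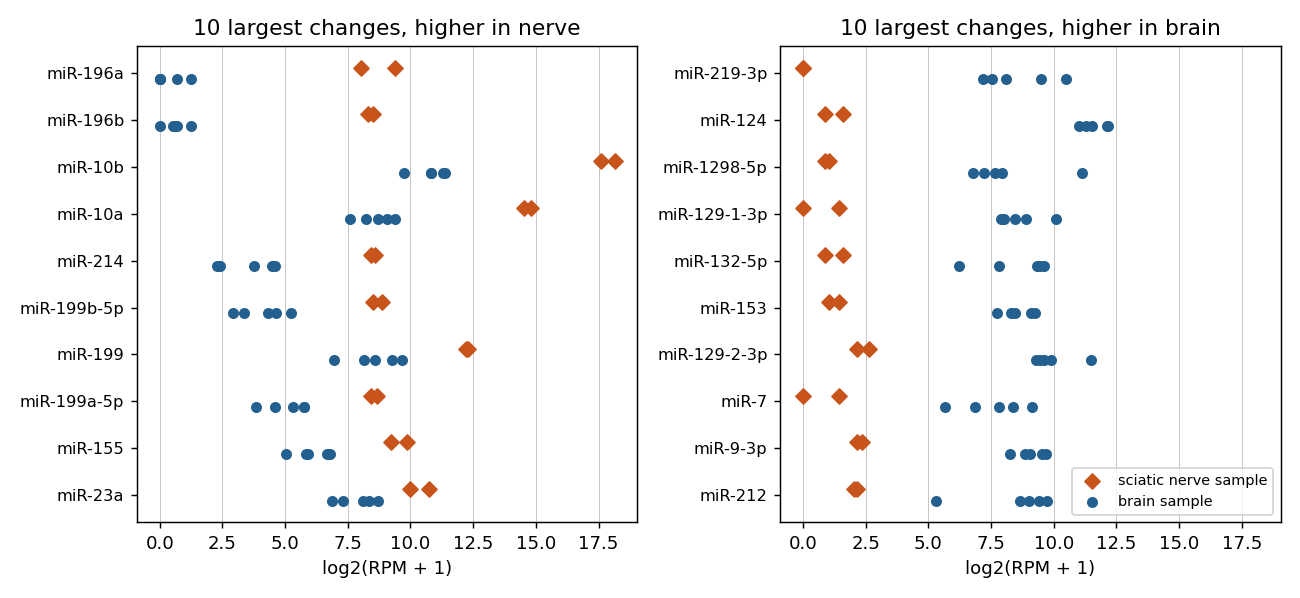
Level of 20 miRNAs with large called differences in each sample, as log2(RPM + 1) on the x axis, left those higher in nerve and right those higher in brain. They have the largest changes of each direction among calls without overlap and with a mean of at least 100 RPM in the higher tissue. Diamonds are the 2 sciatic nerve samples and circles the 5 brain samples. The tissues do not overlap in any of the 20, which was a condition of the choice, and miR-219-3p is at 0 in both nerve samples.

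The neuronal miRNAs were mostly higher in brain. The list holds 32 entries of miRNAs that are known from neurons, such as miR-124, which keeps non-neuronal genes low in neurons, miR-9, which acts in neural progenitors and neurons, and miR-132 and miR-212, which are induced by neuronal activity. Of 27 tested entries 22 were higher in brain, 1 was higher in nerve and 4 were not called. Their median log2 fold change was -5.88, or -3.61 with entries under 3 reads at their bound, and by library size 25 were called higher in brain. Summed over the list, the samples held 1589 and 1498 RPM in the nerve samples and 112737, 94172, 73785, 116097 and 52113 RPM in the brain samples. Every brain sample lay far above both nerve samples. Of the 32 entries 8 had no read in either nerve sample, as had 95 of all 560 entries with a read in these tissues.

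miR-124 stood at 2.06 and 0.859 RPM in the nerve samples and 2971, 2466, 4442, 4574 and 2067 RPM in the brain samples. The nerve values were 2 reads and 1 read, and brain was at least 542-fold higher (edgeR adjusted p = 8.94e-05). The duodenum median of 7.36 RPM was the highest outside brain, and nerve took the 8th place. miR-128, which dampens neuronal excitability, stood at 278 and 227 RPM in the nerve samples and 49434, 34047, 23306, 48333 and 18666 RPM in the brain samples and was 59.1-fold higher in brain (log2 fold change -5.88 ± 0.45 SE, edgeR adjusted p = 5.65e-05). miR-9 stood at 581 and 629.6 RPM in the nerve samples and 38322, 38121, 40348, 35339.5 and 21762 RPM in the brain samples and was 26.03-fold higher (log2 fold change -4.70 ± 0.51 SE, edgeR adjusted p = 0.000208). Unlike miR-124, miR-9 was second highest in nerve among the 16 tissues, 6.12 times the duodenum median of 98.8 RPM. For miR-128 the nerve median (252 RPM) lay below those of plasma (3244 RPM) and testis (1007 RPM), among others. The fold of miR-9 was 40.3-fold with nerve sample 2 left out. Its other arm, hsa-miR-9-3p, was at 4.12 and 3.44 RPM in nerve against 304 to 819 RPM in brain, 65.7-fold apart (edgeR adjusted p = 9.37e-05).

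The remaining neuronal miRNAs differed in how far nerve lay below brain. miR-138a, which is found in dendrites, stood at 327 and 290.3 RPM in the nerve samples and 7424, 6594, 1206, 9317 and 3283 RPM in the brain samples, was 7.39-fold higher in brain (log2 fold change -2.88 ± 0.63 SE, edgeR adjusted p = 0.00642) and ranked second in nerve among the tissues; without nerve sample 1 its adjusted p in edgeR was 0.0596. miR-132 stood at 90.6 and 49.8 RPM in the nerve samples and 5926, 5698, 486, 5525 and 2220.0 RPM in the brain samples and was 23.6-fold higher in brain (log2 fold change -4.56 ± 0.88 SE, edgeR adjusted p = 0.00396). miR-212, from the same transcript, was at 3.09 and 3.44 RPM in nerve against 38.3 to 857 RPM in brain and 61.5-fold higher in brain (edgeR adjusted p = 0.00386), and hsa-miR-132-5p, at 2.06 and 0.859 RPM in nerve against 72.7 to 785 RPM in brain, at least 68.7-fold higher (edgeR adjusted p = 0.000955). Brain sample 3 was the lowest brain sample in miR-132, miR-212 and hsa-miR-132-5p, yet still above both nerve samples. Among the tissues, the nerve median of miR-132 (70.2 RPM) lay below those of testis (100 RPM) and jejunum (86.3 RPM). The fold of miR-212 was 96.6-fold with nerve sample 2 left out. miR-153, encoded inside PTPRN2, stood at 1.03 and 1.72 RPM in nerve against 210.3 to 615 RPM in brain and was at least 65.7-fold higher in brain (edgeR adjusted p = 0.000265). The 3p arms hsa-miR-129-1-3p and hsa-miR-129-2-3p were at least 70.6-fold and 116-fold higher in brain, with 0 and 1.72 RPM and 5.15 and 3.44 RPM in nerve. miR-7, which is not on the list and is known from neurons and endocrine cells, was at 0 and 1.72 RPM in nerve against 49.1 to 559 RPM in brain and at least 36.4-fold higher in brain (edgeR adjusted p = 0.00315). The only list member called in nerve, hsa-miR-218-1-3p, is described with the hairpin arms below.

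The miRNAs of myelinating glia were split. miR-219 drives oligodendrocyte maturation, and miR-338, encoded inside AATK, acts with it in oligodendrocytes. miR-219-3p stood at 0 and 0 RPM in the nerve samples and 186, 276, 145, 712 and 1435 RPM in the brain samples, so that brain was at least 103-fold higher (edgeR adjusted p = 0.00642). The brain samples differed widely among themselves, and all were above nerve. Without brain sample 5 the bound was 45.3-fold. No tissue other than brain had a median above 0.399 RPM. A miR-219-5p entry that is merged with hsa-miR-219b-3p was at 1.03 and 0 RPM in nerve against 15.2 to 77.9 RPM in brain and at least 6.38-fold higher in brain (edgeR adjusted p = 0.0143), with an adjusted p of 0.0573 and 0.0815 in edgeR without nerve sample 1 and 2. The second miR-219-5p entry, at 1.03 and 1.72 RPM in nerve against 8.08 to 46.1 RPM in brain, was not called (edgeR adjusted p = 0.0694).

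Both arms of miR-338 were instead higher in nerve. hsa-miR-338-5p stood at 606 and 651 RPM in the nerve samples and 127, 113, 121, 303 and 283 RPM in the brain samples and was 6.998-fold higher in nerve (log2 fold change 2.81 ± 0.55 SE, edgeR adjusted p = 0.00423), by library size with a log2 fold change of 1.73 and adjusted p = 0.0222 in edgeR. miR-338, the 3p arm, stood at 1424 and 2199 RPM in the nerve samples and 621, 544, 1159, 879 and 1236 RPM in the brain samples and was 4.15-fold higher (log2 fold change 2.05 ± 0.59 SE, edgeR adjusted p = 0.0191). By library size its log2 fold change was 1.03 and its adjusted p in edgeR 0.0781. Leaving out nerve sample 1 or 2 gave adjusted p-values of 0.0664 and 0.297 in edgeR for miR-338, and leaving out nerve sample 2 gave 0.0585 for hsa-miR-338-5p. Without nerve sample 2 the folds were 2.16-fold and 4.55-fold. In both arms nerve was the highest and brain the second highest of the 16 tissues, followed by pancreas with medians of 764 and 30.5 RPM. A further miR-219 entry, hsa-miR-219a-1-3p, at 16.5 and 12.9 RPM in nerve against 5.42 to 13.8 RPM in brain, was also called higher in nerve (edgeR adjusted p = 0.0453), with overlapping RPM and no call by library size (0.66, adjusted p = 0.379 in edgeR). This call was lost when any sample other than brain sample 3 was left out, with edgeR adjusted p from 0.0569 without brain sample 4 to 0.263 without nerve sample 2. In all, 3 of the 6 glial entries were higher in nerve, 2 higher in brain and 1 not called, and the sums of 2049 and 2865 RPM in nerve and 965 to 3047 RPM in brain overlapped.

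The miRNAs of the HTR2C introns, a serotonin receptor gene that the choroid plexus and some neurons express, were near absent in nerve. Their sum was 1.03 and 1.72 RPM in the nerve samples and 310.5, 159, 2321, 266 and 272 RPM in the brain samples. Of 6 tested entries 3 were called higher in brain and 3 were not called. hsa-miR-1298-5p stood at 1.03 and 0.859 RPM in the nerve samples and 246, 109, 2225, 148 and 202 RPM in the brain samples, at least 117-fold higher in brain (edgeR adjusted p = 0.0159). Without nerve sample 1 and 2 its adjusted p was 0.114 and 0.0974 in edgeR. Brain sample 3 held far more than any other brain sample, and without it the bound was 27.9-fold. miR-448, by contrast, was at 11.8 to 28.5 RPM in brain with brain sample 3 the lowest, and at 0 in nerve. hsa-miR-1264 was called in brain (6.38 to 39.3 RPM against at most 0.859 RPM), a call that was lost without nerve sample 1, and hsa-miR-1911-5p, 4.74 to 75.6 RPM in brain and 0 in nerve, was not (edgeR adjusted p = 0.0872), except by library size, with limma and over all 16 tissues (adjusted p = 0.0287, 0.0132 and 0.00224). By library size all 6 tested entries were called higher in brain.

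The imprinted DLK1-DIO3 cluster is a long run of miRNAs expressed from the maternal chromosome, and is known for high levels in brain and in the embryo. Its 65 entries summed to 23154 and 23336 RPM in the nerve samples and 78803, 76491, 57680.1, 84686 and 61455 RPM in the brain samples. Of 49 tested entries 16 were higher in brain, 2 higher in nerve and 31 not called. Of all tested miRNAs 22.5% were higher in brain and 23.6% in nerve. The median log2 fold change of the entries was -1.49 (-0.98 with bounds), against -0.51 (-0.33 with bounds) for all tested. By library size 34 of the 49 were higher in brain, as were 165 of all 386. miR-127, the most abundant, stood at 17365 and 16966 RPM in the nerve samples and 43461, 46992, 33178, 54739 and 44471 RPM in the brain samples, did not overlap in RPM and was not called after scaling (log2 fold change -0.25 ± 0.36 SE, edgeR adjusted p = 0.576), but was called higher in brain by library size (-1.38, adjusted p = 0.00977 in edgeR). miR-410 was at 843 and 891 RPM in nerve against 4936 to 8879 RPM in brain and 3.51-fold higher in brain (log2 fold change -1.81 ± 0.34 SE, edgeR adjusted p = 0.00318). Without nerve sample 2 the fold of miR-410 was 5.36-fold. miR-411 (2351 and 2971 RPM in nerve against 5765 to 13818 RPM in brain) and miR-381 (1010.0 and 1181 RPM in nerve against 1304 to 4417 RPM in brain) were not called, although miR-411 was by library size (edgeR adjusted p = 0.00919).

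Both arms of miR-493 were higher in nerve. hsa-miR-493-5p stood at 48.4 and 41.2 RPM in the nerve samples and 2.54, 8.08, 1.96, 6.10 and 6.95 RPM in the brain samples and was 17.8-fold higher in nerve (log2 fold change 4.15 ± 0.55 SE, edgeR adjusted p = 0.000594). miR-493, the 3p arm, was at 16.5 and 18.9 RPM in nerve against 0.434 to 4.66 RPM in brain and 17.3-fold higher (edgeR adjusted p = 0.00123). Without nerve sample 2 the fold of miR-493 was 10.9-fold. Both were called by library size as well and were highest in nerve among the 16 tissues. These 2 were named because they were the only members of the cluster called in nerve, after their values were seen.

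**Figure D3:**
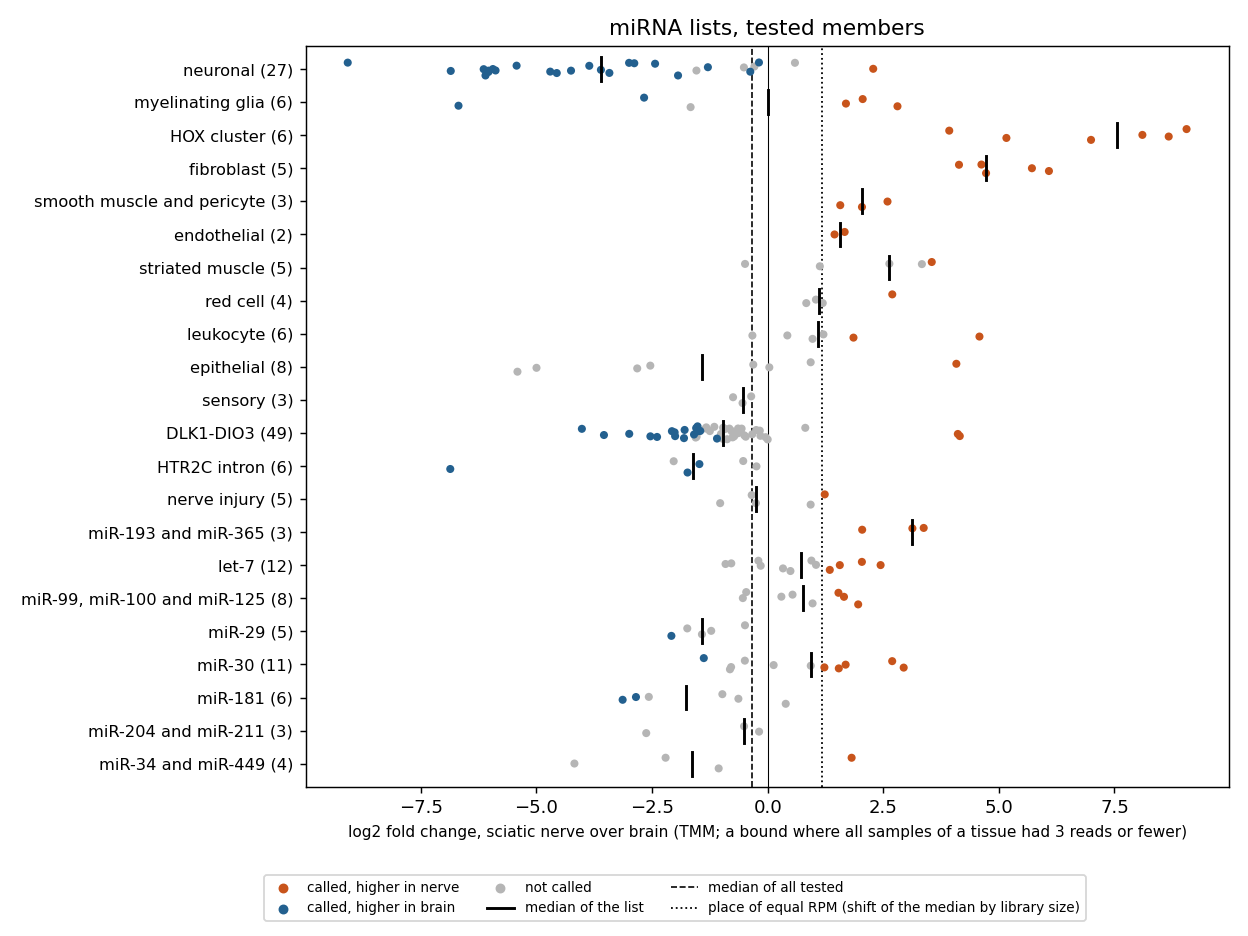
Log2 fold change of nerve over brain (x axis, TMM scale) for the tested members of each list (y axis, with their number), as points coloured by call and placed at their bound where no sample of a tissue had over 3 reads. Short black bars are list medians, the dashed line is the median of all 386 tested (-0.33 with bounds) and the dotted line marks about equal RPM. HOX and fibroblast members all lie to the right of the dotted line and most neuronal members far to the left.

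Vessel miRNAs were called higher in nerve on the TMM scale but not by library size. miR-143 and miR-145, which are made together in smooth muscle and pericytes, were higher in all 3 tested entries, but none was called by library size. miR-143 stood at 73286 and 59135 RPM in the nerve samples and 65444, 55575, 13766, 31248 and 23372 RPM in the brain samples, with a log2 fold change of 2.04 ± 0.44 SE (edgeR adjusted p = 0.00642) and 0.81 by library size (adjusted p = 0.232 in edgeR); without nerve sample 1 and 2 its adjusted p was 0.0677 and 0.0859 in edgeR. miR-145 was at 886 and 859 RPM in nerve against 137 to 636 RPM in brain, a log2 fold change of 2.59 against 1.28 by library size. hsa-miR-145-3p overlapped between the tissues, at 59.7 and 59.3 RPM in nerve against 17.7 to 91.6 RPM in brain. For endothelium, miR-126, encoded inside EGFL7, was at 11276 and 13929 RPM in nerve against 5306 to 13577 RPM in brain and its 3p arm hsa-miR-126-3p at 1042 and 1255 RPM in nerve against 452 to 1461 RPM in brain. These levels overlapped, and the log2 fold changes of 1.66 and 1.45 became 0.41 and 0.18 by library size, neither called. Without nerve sample 2 miR-126 lost its call (edgeR adjusted p = 0.161), and without nerve sample 1 or 2 so did hsa-miR-126-3p (0.0573 and 0.283). hsa-miR-145-3p lost its call without nerve sample 1, nerve sample 2 or brain sample 5 (0.134, 0.276 and 0.0716 in edgeR).

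Of the blood miRNAs, miR-486 was higher in nerve. It stood at 78557 and 73562 RPM in the nerve samples and 29004, 17900.1, 42204, 10850.1 and 18944 RPM in the brain samples, was the second most abundant miRNA of nerve, and was 6.47-fold higher there (log2 fold change 2.69 ± 0.60 SE, edgeR adjusted p = 0.00723), by library size with adjusted p = 0.0154 in edgeR. Its adjusted p without nerve sample 1 and 2 was 0.0514 and 0.0768 in edgeR. miR-486 is made in red cells and also in muscle. The red cell miRNA miR-451 was not called, at 672 and 1090.0 RPM in nerve against 159 to 2161 RPM in brain and edgeR adjusted p = 0.166, nor were miR-144 (10.3 and 17.2 RPM in nerve against 2.61 to 42.0 RPM in brain) and hsa-miR-144-5p (8.24 and 34.4 RPM in nerve against 6.08 to 95.4 RPM in brain). Plasma, the highest other tissue, had medians of 579253 RPM for miR-486 and 82461 RPM for miR-451.

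The markers of striated muscle and of epithelium were carried by single samples. The muscle list summed to 2019 and 120.3 RPM in the nerve samples and 318, 337, 159.6, 299 and 78.2 RPM in the brain samples. miR-133a, called higher in nerve (11.7-fold, edgeR adjusted p = 0.00690), rested on nerve sample 1. Without that sample its log2 fold change was 0.36 with adjusted p = 0.698 in edgeR. miR-133b (44.3 and 3.44 RPM in nerve against 0.434 to 13.8 RPM in brain) and miR-206 (30.9 and 0 RPM in nerve against 0 to 9.33 RPM in brain) were not called, and their log2 fold changes turned negative without nerve sample 1. Higher in nerve, miR-133b was called with DESeq2, over all 16 tissues and in edgeR without brain sample 3 (adjusted p = 0.0251, 0.0433 and 0.0166), and miR-206 over all 16 tissues (0.0114). miR-499 was higher in each brain sample, 9.27 and 10.3 RPM in nerve against 16.9 to 46.1 RPM in brain, and not called. Among 5 tested muscle entries 1 was called, and of 13 entries 6 had no read in nerve and 5 none in brain. Of all 650 entries with a read in any sample of the series, 465 had one in nerve and 551 in brain. The epithelial list summed to 212 and 14.6 RPM in the nerve samples and 219, 3588, 30.9, 183 and 445 RPM in the brain samples, and 1 of its 8 tested entries was called, miR-205, at 49.4 and 0.859 RPM in the nerve samples and 3.82, 7.77, 0.982, 2.71 and 0 RPM in the brain samples. Its call was not repeated by library size (adjusted p = 0.0710 in edgeR) and nerve sample 2 lay within the brain range. Without nerve sample 1 its log2 fold change was -0.61 with adjusted p = 0.858 in edgeR. miR-429 (3.09 and 0 RPM in nerve against 0.982 to 1278 RPM in brain), hsa-miR-200b-3p (28.8 and 0.859 RPM in nerve against 2.46 to 901 RPM in brain), hsa-miR-200a-3p (1.03 and 0 RPM in nerve against 1.47 to 966 RPM in brain) and miR-203 (57.7 and 5.15 RPM in nerve against 9.33 to 172 RPM in brain) were not called. DESeq2 and the fit over all 16 tissues called miR-429 (adjusted p = 0.0343 and 0.00309) and hsa-miR-200a-3p (0.0132 and 0.000951) higher in brain, and the latter fit hsa-miR-200b-3p (0.0408). The share of muscle or epithelial tissue in these samples was not tested.

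The miR-183, miR-96 and miR-182 cluster, known from sensory neurons and sense organs, was even in nerve and uneven in brain. miR-182 stood at 6367 and 5304 RPM in the nerve samples and 307, 82068, 255, 249 and 13005 RPM in the brain samples, and miR-183 at 814 and 868 RPM in the nerve samples and 29.3, 9871, 16.7, 26.4 and 2107 RPM in the brain samples. Both nerve samples lay above 3 brain samples and below brain samples 2 and 5. None of 3 tested entries was called (log2 fold change -0.54 ± 2.06 SE for miR-182 and -0.36 ± 2.12 SE for miR-183), and without brain sample 2 these values became 1.28 and 1.14. Among the 16 tissues nerve had the highest median of miR-183 and the second highest of miR-182, after pancreas (5938 RPM). miR-96 was at 0 and 0.859 RPM in nerve against 0 to 41.3 RPM in brain, and hsa-miR-183-3p was too low to test.

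**Figure D4:**
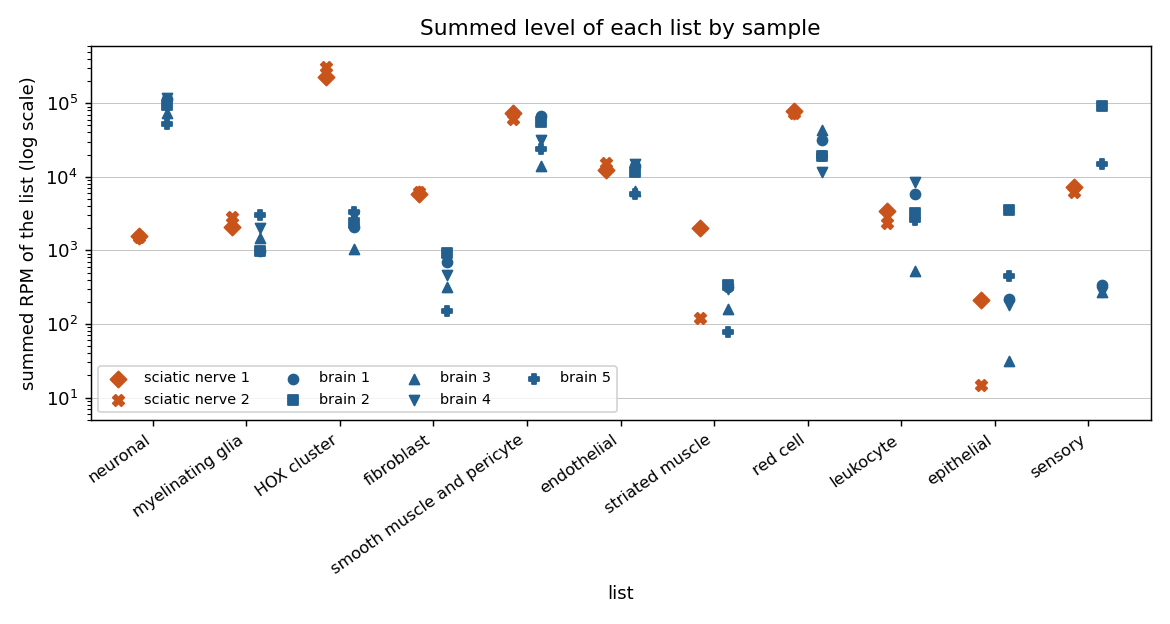
Summed level of each marker list in every sample, in RPM on a log scale (y axis), with the lists along the x axis. Orange symbols are the 2 sciatic nerve samples and blue symbols the 5 brain samples. The tissues do not overlap in the neuronal, HOX cluster, fibroblast and red cell lists. Nerve sample 1 stands apart in the striated muscle list and brain sample 2 in the epithelial and sensory lists.

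Families that most cells use moved within narrower limits. Of all tested miRNAs 23.6% were higher in nerve and 22.5% in brain, and by library size 39 and 165 of 386. These shares stand beside the counts of each family here and below. The let-7 family, which restrains proliferation, had 4 of 12 tested members higher in nerve and none higher in brain, against 1 and 2 by library size. let-7c was at 20802 and 13293 RPM in nerve against 4604 to 12228 RPM in brain and 5.43-fold higher in nerve by TMM (log2 fold change 2.44 ± 0.34 SE, edgeR adjusted p = 0.000697), and was called by library size too. let-7b (4.11-fold) and let-7a (2.95-fold) were called with TMM and not by library size, and let-7f was not called. Leaving out nerve sample 1 raised the adjusted p of let-7b to 0.0851 in edgeR, and leaving out nerve sample 1, nerve sample 2 or brain sample 2 raised that of let-7a to 0.202, 0.161 and 0.0633. In the miR-99, miR-100 and miR-125 family 3 of 8 were higher in nerve and none by library size. miR-99a was at 2797 and 3551 RPM in nerve against 1734 to 2789 RPM in brain, 3.14-fold higher, with adjusted p = 0.215 in edgeR without nerve sample 2. miR-125a, miR-99b and miR-125b were not called (miR-125b reached edgeR adjusted p = 0.0491, higher in nerve, without brain sample 3), and miR-125a and miR-99b were called higher in brain by library size.

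In the miR-30 family, which is high in differentiated epithelium and muscle, 5 of 11 tested members were higher in nerve and 1 in brain, against 2 and 4 by library size. Besides miR-30a, the nerve calls were the 3p arms hsa-miR-30a-3p, hsa-miR-30c-2-3p, hsa-miR-30c-1-3p and hsa-miR-30b-3p. miR-30a (25392 and 31239 RPM in nerve against 17212 to 31979 RPM in brain) was 2.90-fold higher in nerve, with adjusted p = 0.222 in edgeR without nerve sample 2 and no call by library size (log2 fold change 0.35). miR-30d (6664 and 6681 RPM in nerve against 13022 to 30215 RPM in brain), hsa-miR-30e-5p and miR-30c were not called, but by library size miR-30d and hsa-miR-30e-5p were, higher in brain (edgeR adjusted p = 0.00960 and 0.0159). The miR-29 family, which lowers collagen mRNAs, leaned to brain. All 5 tested members were higher in each brain sample than in both nerve samples by RPM, where 47.7% of all tested miRNAs were so. miR-29b (16.5 and 6.87 RPM in nerve against 44.7 to 188 RPM in brain) was 4.23-fold higher in brain (edgeR adjusted p = 0.00973), with adjusted p = 0.0588 in edgeR without nerve sample 2. miR-29a, miR-29c and hsa-miR-29c-5p were not called, but by library size all 5 members were called higher in brain. miR-29c was also called with DESeq2, limma, no filter, a mean of at least 100 RPM and the fit over all 16 tissues (adjusted p = 0.0251, 0.00672, 0.0473, 0.0473 and 0.00446), and in edgeR without brain sample 3 or 5 (0.0478 and 0.0218). Nerve had the lowest median of the 16 tissues for miR-29b and miR-29c.

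The miR-181 family led the brain profile. miR-181a, the most abundant miRNA of brain and next to miR-10b and miR-486 in nerve, stood at 76766 and 64864 RPM in the nerve samples and 155612, 178387, 169188, 214686 and 372666 RPM in the brain samples and was not called by TMM (log2 fold change -0.63 ± 0.61 SE, edgeR adjusted p = 0.392) but was by library size (-1.62, adjusted p = 0.0135 in edgeR). miR-181b (8472 and 5997 RPM in nerve against 7549.7 to 18431 RPM in brain), miR-181c (1566 and 1600.2 RPM in nerve against 7791 to 55257 RPM in brain) and miR-181d (731 and 488 RPM in nerve against 1264 to 4958 RPM in brain) were not called, although miR-181c and miR-181d were called higher in brain by library size (edgeR adjusted p = 0.0191 and 0.0320), and miR-181c over all 16 tissues and without brain sample 3 (6.60e-05 and 0.0225). The opposite arms hsa-miR-181a-3p and hsa-miR-181c-3p were called in brain, 2 of 6 tested. miR-204, known from choroid plexus and retinal pigment epithelium, was at 1069.7 and 259 RPM in nerve against 2833 to 18388 RPM in brain with edgeR adjusted p = 0.0569. Most alternatives called it higher in brain, with adjusted p = 0.0136 by library size, 0.00720 with DESeq2, 0.00445 with limma, 0.00129 over all 16 tissues, 0.0453 with no filter, 0.0483 at a mean of at least 100 RPM and 0.0238 in edgeR without brain sample 3. miR-211 was called by library size (0.0478) and hsa-miR-204-3p was not. Of the miR-34 and miR-449 family, 1 of 4 tested members was called, miR-34a, 3.52-fold higher in nerve, without a call by library size (edgeR adjusted p = 0.369). Its adjusted p without nerve sample 1 and 2 was 0.108 and 0.120 in edgeR. miR-34c, abundant in ciliated cells, was at 28.8 and 3.44 RPM in nerve against 21.01 to 1939 RPM in brain, with brain sample 3 at the top, and miR-34b and hsa-miR-34b-3p were highest in that sample too. The fit over all 16 tissues called miR-34c and miR-34b higher in brain (edgeR adjusted p = 0.00710 and 0.0191).

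All 3 tested members of the miR-193 and miR-365 group were higher in nerve. rno-miR-193b-3p was at 245 and 205 RPM in nerve against 23.1 to 111 RPM in brain (10.4-fold, edgeR adjusted p = 0.000741) and miR-193a at 105 and 94.5 RPM in nerve against 8.35 to 33.1 RPM in brain (8.75-fold, edgeR adjusted p = 0.000757), both also called by library size. miR-365 (120.5 and 143 RPM in nerve against 23.6 to 138 RPM in brain) was not called by library size, and its adjusted p was 0.0573 and 0.184 in edgeR without nerve sample 1 and 2. miR-193b was too low to test. Of 5 tested miRNAs known to rise after nerve injury 1 was called, miR-21, at 3228 and 2463 RPM in nerve against 1534 to 3350.5 RPM in brain, with a log2 fold change of 1.23 by TMM (edgeR adjusted p = 0.0201) and 0.11 by library size. Its adjusted p was 0.199, 0.226, 0.0696 and 0.0608 in edgeR without nerve sample 1, nerve sample 2, brain sample 2 and brain sample 5. miR-222 (1249 and 741 RPM in nerve against 1654 to 3306 RPM in brain), miR-221 (804 and 493 RPM in nerve against 921 to 3714 RPM in brain) and hsa-miR-221-5p (15.4 and 15.5 RPM in nerve against 28.0 to 112 RPM in brain) were lower in each nerve sample by RPM and not called. By library size miR-222 and hsa-miR-221-5p were called higher in brain (edgeR adjusted p = 0.0328 and 0.0219), and hsa-miR-221-5p also in the fit over all 16 tissues and without brain sample 3 (0.0428 and 0.0297).

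Some miRNAs had higher medians in both nervous tissues than in each of the other 14 tissues. The lower of the nerve and brain medians was divided by the highest median of the other 14 tissues, over miRNAs above 100 RPM in both, and 28 had a ratio above 1 and 13 above 2. With TMM-scaled values the counts were 15 and 7. How many miRNAs passed 100 RPM in both was not counted, so no share is given. A ratio above 1 does not mean low levels elsewhere. For rno-miR-151-3p (ratio 1.31) lung had a median of 9826 RPM. The highest ratio, 7.92, belonged to miR-432 of the DLK1-DIO3 cluster, at 317 and 185 RPM in nerve against 169 to 1763 RPM in brain where thymus had a median of 31.7 RPM. miR-9 followed with 6.12. miR-149, at 173 and 111 RPM in nerve against 164 to 2533 RPM in brain, had a ratio of 5.78 over kidney, and was not called between nerve and brain (edgeR adjusted p = 0.0855). It was called higher in brain by library size, with DESeq2, limma and the fit over all 16 tissues (adjusted p = 0.0284, 0.0414, 0.0355 and 0.00441), and in edgeR without brain sample 3 (0.00538). miR-127 had 5.52, over thymus (3110.1 RPM), and miR-410 5.28, over testis (164 RPM). These ratios describe the tissue medians and carry no test. The highest single sample outside nerve and brain reached 154 RPM for miR-432, 227 RPM for miR-9, 53.4 RPM for miR-149, 15405 RPM for miR-127 and 336 RPM for miR-410. For miR-432, miR-9, miR-149, miR-127 and miR-410 all nerve and brain samples were above it.

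The place of the tissues differed by direction. Of the 87 miRNAs higher in brain, 78 had their highest median of the 16 tissues in brain, as did 179 of all 386 tested, and in 24 of the 87 nerve came second, as in 78 of the 386. Of the 91 higher in nerve, 22 had their highest median in nerve, where 24 of the 386 did, and in 9 of the 91 brain came second, among them both miR-338 arms and let-7c. In 21 of the 91 brain was among the lowest 3 tissues, as in 35 of the 386. The calls and these places share the same samples, so the places describe the calls and do not test them.

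**Figure D5:**
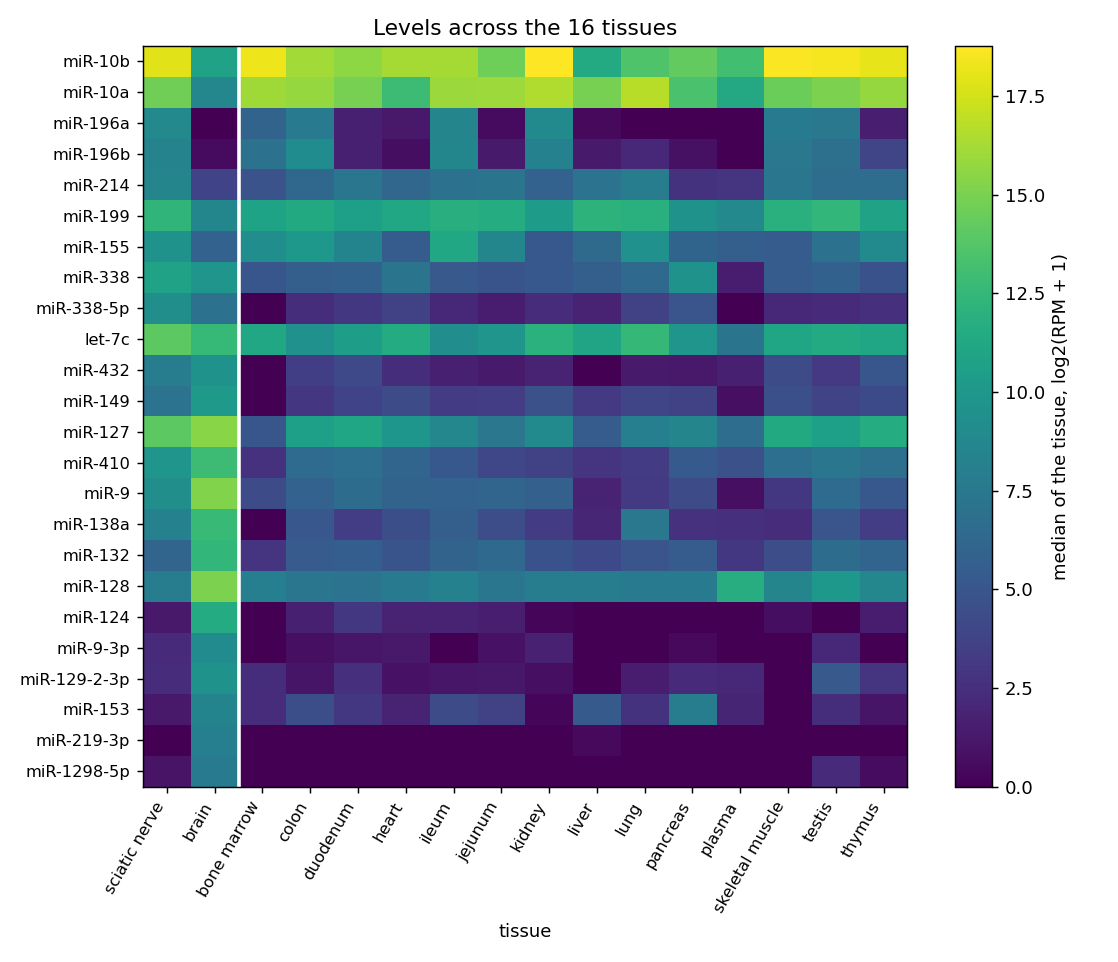
Median level of 24 miRNAs (rows) in the 16 tissues (columns), as log2(RPM + 1) by colour, with sciatic nerve and brain to the left of the white line. The HOX miRNAs are high in nerve and several other tissues and lowest in brain for miR-10a and miR-10b, miR-338 and miR-432 are high in both nervous tissues, and miR-124 and miR-219-3p in brain alone.

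The most abundant miRNAs without a call were, besides miR-181a and miR-127, miR-26a, miR-191 and let-7f. miR-26a stood at 36772 and 45555 RPM in the nerve samples and 51632, 48429, 134657, 45418 and 40128 RPM in the brain samples, with brain sample 3 far above the rest and a log2 fold change of 0.39 ± 0.67 SE. miR-191 was at 34627 and 30577 RPM in nerve against 21668 to 57787 RPM in brain with a log2 fold change of 0.79 ± 0.44 SE, and let-7f at 34962 and 27078 RPM in nerve against 24090.2 to 47138 RPM in brain with 1.05 ± 0.49 SE. For these 3 the tissues overlapped in RPM, and the absence of a call does not show equal levels. Without brain sample 3 miR-26a and let-7f were called higher in nerve by TMM, with adjusted p-values of 0.0276 and 0.00883 in edgeR, and without brain sample 5 miR-191 was, with 0.0302.

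Within a sample the scaling shifts all miRNAs alike, and 2 arms of a hairpin can be set side by side. The shift differs between samples, so the difference between the fold changes of 2 arms is not wholly free of it. For miR-144 and hsa-miR-144-5p the log2 fold changes were 1.04 and 0.83 with TMM and -0.25 and -0.58 by library size. Pairs of tested entries were formed by a shared hairpin name, leaving out those of the same named arm or of differently numbered hairpins. The pair of miR-106a entries stayed in, although their merged names give 5p arms of different hairpins. An entry could stand in more than 1 pair, as miR-128 and miR-129 did, so the pairs are not all separate hairpins. Over 106 such pairs both entries were called in 33, and in 32 of these in the same direction. The exception among the 33 was miR-218, which is known from motor neurons. Pairs without calls of both entries are outside this count, and some had opposite signs. An example is miR-106b (log2 fold change -1.38, not called) with hsa-miR-106b-3p (1.53, called higher in nerve). miR-218, the 5p arm, stood at 155 and 175 RPM in the nerve samples and 1218, 1072, 798, 1433 and 327 RPM in the brain samples and was 2.45-fold higher in brain (log2 fold change -1.29 ± 0.44 SE, edgeR adjusted p = 0.0403). hsa-miR-218-1-3p stood at 60.7 and 42.9 RPM in the nerve samples and 36.9, 32.3, 1.96, 39.3 and 17.4 RPM in the brain samples and was 4.86-fold higher in nerve (log2 fold change 2.28 ± 0.68 SE, edgeR adjusted p = 0.0217), without a call by library size (1.03, adjusted p = 0.313 in edgeR). The call of the 5p arm was lost without nerve sample 1 or 2 or brain sample 1 or 4 (edgeR adjusted p = 0.178, 0.0673, 0.0731 and 0.0674). That of the 3p arm was lost without nerve sample 1 or 2 or brain sample 5 (edgeR adjusted p = 0.158, 0.152 and 0.0560). The signs held throughout. The log2 fold changes differed by 3.58, which was not tested in itself. Arms with calls in the same direction could lie as far apart, such as miR-27a (2.37) and hsa-miR-27a-5p (6.09), both higher in nerve. Since miR-218 has more than 1 precursor gene and the 5p entry may count reads of each, the arms need not stem from the same gene.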

How the data were processed

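Total RNA of frozen tissue was made into small RNA libraries with a TruSeq kit. The authors aligned adaptor-clipped reads to CanFam3.1 and deposited counts of reads per miRNA annotated in dog, rat or human, with the total of miRNA reads per sample. RPM was recomputed from these counts. Entries absent from a sample were set to 0. One sample name in the table, a nerve pool, matched no labelled sample and was not used, and 1 labelled sample had no values and was not used. Counts were filtered with filterByExpr (minimum count 10), scaled by TMM and tested with edgeR 4.0.16 (quasi-likelihood, Benjamini-Hochberg, threshold 0.05) in the 7 samples, with no covariate. Prior results on these data were known when members, lists and tests were chosen. Where no sample of a tissue had more than 3 reads, the fold is a lower bound against 3 reads per library, averaged over the samples of that tissue, on TMM-scaled values.

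Named miRNAs were the 10 largest called changes in each direction without overlap and with a mean of at least 100 RPM, the 5 most abundant in each tissue, up to 4 members of each list by level, the 5 highest ratios of nerve and brain to other tissues, and the 5 most abundant without a call. Others are said to be named after their values were seen, or stand as list members, opposite arms or neighbours of these. Alternatives were RLE, upper quartile and library-size scaling, DESeq2 1.42.0, limma 3.58.1 on log2(RPM + 1), other filters, a fit over all 16 tissues and each sample left out, in R 4.3.3. Values across tissues used medians, with means and TMM-scaled values as alternatives. The procedure was tested on simulated data, drawn from 1 mean profile over both tissues with rises and falls alike. That test therefore cannot bear on the choice of scaling. Names of neighbouring genes come from the RefSeq table of UU_Cfam_GSD_1.0, a different assembly, so no coordinates are given. No sequences are shown, and the pool, Q-RT-PCR and raw reads were not analysed here.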

Additional observations from a re-analysis of the deposited data

Results flagged for a closer look

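Of 94 named miRNAs with a brain mean of at least 10 RPM, 25 had 1 brain sample far from the other 4 (Dixon's test at the 95% level, critical value 0.71). Chance alone flags about 1 in 20 groups, and these miRNAs share samples and families. The 2 nerve samples are too few for such a test. What set these samples apart was not tested.

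Brain sample 3 was far above the rest in miR-26a (134657 RPM), let-7f (47138 RPM), miR-181c (55257 RPM), miR-181d (4958 RPM), miR-34c (1939 RPM), miR-34b (97.7 RPM), hsa-miR-1298-5p (2225 RPM) and hsa-miR-1911-5p (75.6 RPM), and far below in miR-193a (8.35 RPM). Brain sample 2 was far above in miR-182 (82068 RPM), miR-183 (9871 RPM), miR-96 (41.3 RPM), miR-429 (1278 RPM), hsa-miR-200a-3p (966 RPM) and hsa-miR-200b-3p (901 RPM).

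Brain sample 5 was far above in miR-181a (372666 RPM) and miR-181b (18431 RPM) and far below in miR-9 (21762 RPM) and miR-29a (1004 RPM). Brain sample 4 was far above in let-7c (12228 RPM), hsa-miR-129-1-3p (1091 RPM), hsa-miR-129-2-3p (2846 RPM), hsa-miR-29c-5p (125 RPM) and rno-miR-193b-3p (111 RPM), and brain sample 1 in hsa-miR-144-5p (95.4 RPM).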

How the results depend on the processing

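The 178 calls (91 higher in nerve, 87 in brain, 109 with a fold above 5) stayed within 1.5 times under RLE and upper quartile scaling, DESeq2 and no filter. The direction moved with the scaling. Library size gave 39 in nerve and 165 in brain, limma on log2(RPM + 1) 38 and 168, and the fit over all 16 tissues 79 and 133. A mean of at least 100 RPM left 184 miRNAs to test and 108 calls, 55 and 53, of which 62 had a fold above 5. Leaving out 1 sample gave 90 to 232 calls, 43 to 111 in nerve, 42 to 121 in brain and 77 to 127 with a fold above 5. The lowest counts came without nerve sample 1 (90) or 2 (104), where the lone nerve sample is assumed to vary like brain, and the highest without brain sample 3 (232). Without brain samples 2 and 3, chosen after seeing the data, there were 211. miRNAs with a nerve and brain ratio above 1 fell from 28 to 15 with TMM-scaled values. No paired analysis was possible because the labels carry no dog number.

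Of 49 miRNAs that the naming rule chose and that were called, none changed sign in any setting and 27 kept their call in each. Of 46 that were not called, 30 were called in some setting, 18 by library size, 18 with limma, 6 with DESeq2 and 15 over all 16 tissues. Of 8 named after their values were seen, miR-205 changed sign when 1 sample was left out (-0.61 to 4.68), and so did miR-93 (-0.081), miR-502 (-0.029) and miR-652 (-0.0070) by library size and miR-93 with limma (-0.054). The other reversals were among those not called. By library size the log2 fold change was -0.21 for miR-125b, -0.095 for miR-142, -0.25 for miR-144, -0.57 for miR-181b, -0.33 for miR-191, -0.64 for miR-26a, -1.07 for miR-30c, -0.19 for miR-451 and -0.58 for hsa-miR-144-5p. With limma it was -0.098 for miR-125b, -0.52 for miR-181b, 1.66 for miR-182, 2.09 for miR-183, -0.25 for miR-191, -0.48 for miR-26a, -0.96 for miR-30c and -0.33 for hsa-miR-144-5p. For miR-30c it was -0.075 with the upper quartile, -0.061 with no filter and -0.29 over all tissues. Leaving out 1 sample changed the sign for some, with a range of -0.072 to 3.24 for miR-133b, -1.25 to 0.069 for miR-146b, -0.95 to 1.28 for miR-182, -0.95 to 1.14 for miR-183, -2.85 to 0.13 for miR-203, -5.36 to 3.95 for miR-206, -0.35 to 1.09 for miR-26a, -0.48 to 0.29 for miR-30c, -0.85 to 0.34 for miR-381, -1.22 to 1.51 for hsa-miR-144-5p and -6.34 to 0.078 for hsa-miR-204-3p. Without brain samples 2 and 3 it was 1.00 for miR-182, 0.86 for miR-183 and 0.41 for miR-381. Apart from the scalings and fewer samples, the cause was not tested. Depth limits the miRNAs of a few reads, whose folds are bounds.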
